A study of Mus musculus with 6 samples.

Results

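Chemokines are small secreted proteins that draw leukocytes and other cells along a gradient by acting on G protein-coupled receptors, and they are grouped by the spacing of their first cysteines into CC, CXC and CX3C families. In the brain the CC members are known chiefly as products of microglia and other myeloid cells during injury or inflammation, while Cxcl12, Cxcl14 and Cx3cl1 are also made in healthy tissue. Cx3cl1, also called fractalkine, is anchored in the neuronal membrane and is read by microglia through its receptor Cx3cr1.

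The 10 chemokine genes described here were Ccl2, Ccl3, Ccl4, Ccl7, Ccl12, Ccl24, Cxcl10, Cxcl12, Cxcl14 and Cx3cl1, taken by name from the 18560 genes of a single-cell RNA count table of the mouse olfactory bulb. All 10 were present in the table. The table held 51426 cells with a cluster, in 38 clusters, from wild-type C57BL/6NJ mice that were 14 weeks old, with males and females. Each of the 6 libraries came from a pool of animals, and there were 2 libraries for each of 3 conditions, so the spread between libraries is that between pools.

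Control mice had no manipulation according to the labels, although the study also describes the open side of occluded animals as the control. Naris-occluded mice wore a plug in a nostril for 6 weeks, which deprives the bulb on that side of odor. Olfactory-trained mice were water-deprived and learned over 6 weeks to discriminate odors for a water reward in a Go/No-Go task, and water deprivation is not described for the other groups, so training and water restriction cannot be told apart. All groups shared the strain, and all cells were released with papain at 37 °C for 20 min from bulbs that could carry some olfactory epithelium.

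Libraries held 6705 to 10570 cells and 11841160 to 17065083 unique molecular identifiers (UMIs, each marking 1 captured RNA molecule), and the median per cell lay between 1028 and 1724 UMIs. Replicate 1 of each condition carried Y-linked RNA and almost no Xist in neurons, and replicate 2 the reverse, so the number of a library also gives the sex of its pool. Barcode sequences that occurred in more than 1 library belonged to 2956 cells, or 5.75% of all. Levels are given as CPM, the UMIs of a gene in the summed cells of a cluster in 1 library after scaling that sum to 1000000 UMIs, as mean ± SD over the 6 libraries.

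Ccl2, Ccl7, Ccl12, Ccl3 and Ccl4 lie on mouse chromosome 11 in build mm10. Ccl2 (chr11:82035577-82037452), Ccl7 (chr11:82045712-82047525) and Ccl12 (chr11:82101845-82103399) follow each other with 8259 and 54319 bases between them. Ccl3 (chr11:83647843-83649378) and Ccl4 (chr11:83648624-83664683) lie 1544443 bases beyond Ccl12, and their annotated intervals share 755 bases, so counts in the shared stretch can be assigned to 1 of them only by strand. Ccl24 (chr5:135569935-135573123) and Cxcl10 (chr5:92346638-92348889) are on chromosome 5, Cxcl12 (chr6:117168535-117181368) is on chromosome 6, Cxcl14 (chr13:56288643-56296811) on chromosome 13 and Cx3cl1 (chr8:94772180-94782427) on chromosome 8.

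RefSeq's GRCm38.p6 promoter table, which has the same coordinates as mm10, held 6 of the 10 genes, namely Ccl3, Ccl12, Cxcl10, Cxcl12, Cxcl14 and Cx3cl1. The 250 bases before the start of 4 of these are printed because their RNA was found in unlike cells, in microglia, in macrophages, in a handful of scattered cells and in neurons. Capitals mark matches on either strand to the NF-kappaB motif (GGGA and CC with any 4 bases between), the AP-1 motif TGANTCA, the interferon-response motif (GAAA, any 2 bases, GAAA) and the TATA box TATAAA.
Ccl3, chr11:83649379-83649628, minus strand: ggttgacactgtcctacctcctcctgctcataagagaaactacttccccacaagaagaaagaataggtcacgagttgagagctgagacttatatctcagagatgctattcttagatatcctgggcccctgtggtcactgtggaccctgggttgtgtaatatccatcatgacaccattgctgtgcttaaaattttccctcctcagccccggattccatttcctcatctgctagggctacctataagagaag
Ccl12, chr11:82101595-82101844, plus strand: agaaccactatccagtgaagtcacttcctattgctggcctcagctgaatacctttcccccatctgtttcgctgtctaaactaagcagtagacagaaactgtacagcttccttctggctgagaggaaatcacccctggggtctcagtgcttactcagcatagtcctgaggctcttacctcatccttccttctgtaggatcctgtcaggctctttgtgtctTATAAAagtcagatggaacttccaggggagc
Cxcl10, chr5:92348890-92349139, minus strand: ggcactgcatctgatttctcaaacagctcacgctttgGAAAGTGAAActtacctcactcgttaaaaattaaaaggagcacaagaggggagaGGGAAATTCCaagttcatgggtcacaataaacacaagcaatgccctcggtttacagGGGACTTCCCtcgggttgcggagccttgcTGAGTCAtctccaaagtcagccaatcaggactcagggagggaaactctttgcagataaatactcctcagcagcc
Cx3cl1, chr8:94771930-94772179, plus strand: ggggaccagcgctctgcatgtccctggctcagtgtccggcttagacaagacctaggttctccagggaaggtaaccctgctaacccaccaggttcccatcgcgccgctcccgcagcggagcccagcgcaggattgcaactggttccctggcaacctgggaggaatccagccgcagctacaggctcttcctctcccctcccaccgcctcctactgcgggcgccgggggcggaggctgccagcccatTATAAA

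Cxcl10, whose protein draws activated T cells, held 4 of these matches, with the interferon-response motif GAAAGTGAAA 213 to 204 bases before the start, the NF-kappaB motifs GGGAAATTCC at 159 to 150 and GGGACTTCCC at 103 to 94, and the AP-1 motif TGAGTCA at 74 to 68. A match to TATAAA lay 31 to 26 bases before the start of Ccl12 and 6 to 1 before that of Cx3cl1, where it adjoins the annotated start. Whether either match works as a TATA box was not tested. None of the 4 motifs matched in the Ccl3 window. Of the windows not printed, that of Cxcl14 held an interferon-response match, GAAACAGAAA at 172 to 163, and that of Cxcl12 held no match. Among all 32851 promoters of the table, 17.6% held the NF-kappaB motif, 6.75% the AP-1 motif, 2.98% the interferon-response motif and 12.4% the TATA box in the same 250 bases.

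The level of each gene in every cluster separated the 10 genes by cell type. Ccl2, Ccl7, Ccl12 and Ccl24 were highest in the macrophage cluster Mf, Ccl3 and Ccl4 in the microglial cluster MicroG1, Cxcl10 in the monocyte cluster Mono, Cxcl12 in the endothelial cluster EC1, Cxcl14 in the astrocyte cluster Astro1 and Cx3cl1 in the neuronal cluster N7. The cluster names are those of the deposited annotation. Matched by their numbers of cells, they differ in part from the names in the study's own cluster list, where MicroG1 and MicroG2 carry each other's name, as do Astro2 and Astro3, Mes1 and Mes2, OEC2 and OEC5, and OEC3 and OEC4, and where every neuronal cluster but N7 has another number. Their defining markers were highest in the cluster so named for the microglia, macrophages, endothelial cells and astrocytes used here, with P2ry12 at 1641 CPM in MicroG1 and 2094 CPM in MicroG2, Mrc1 at 1429 CPM in Mf, Cldn5 at 7156 CPM in EC1 and Aqp4 at 1004 CPM in Astro1. Mono also held the highest levels of the T cell and natural killer cell genes Cd3e, Cd3d and Nkg7 and of the neutrophil genes S100a8 and S100a9, so it was not made of monocytes alone.

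**Figure D1:**
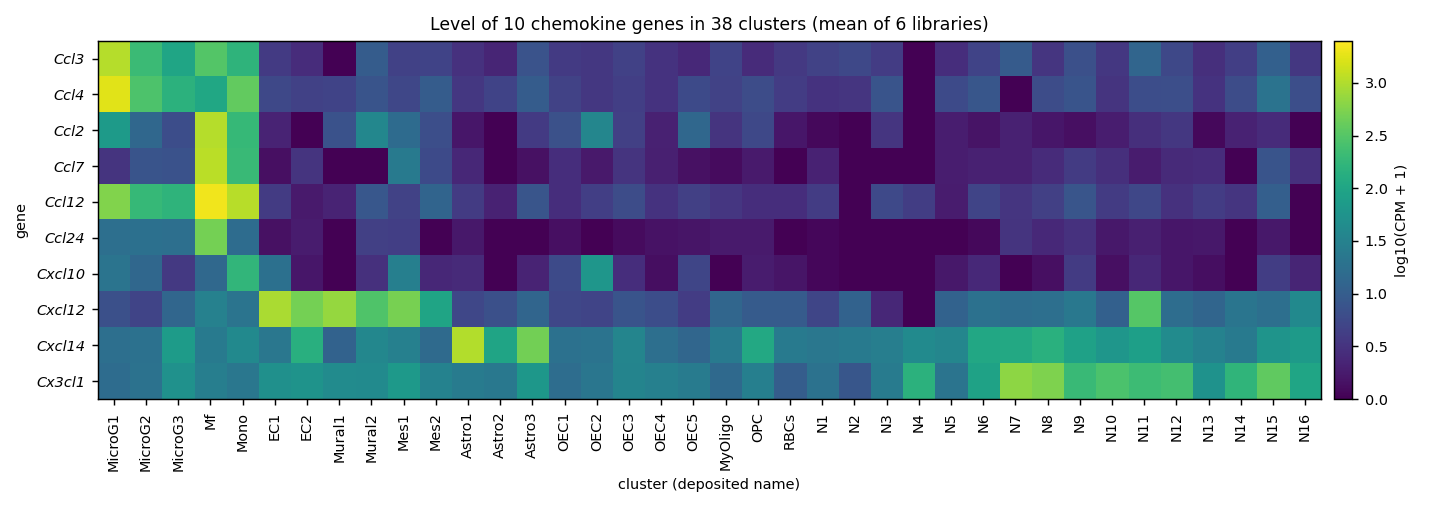
Level of the 10 chemokine genes (rows) in the 38 clusters (columns), as log10 of the mean CPM over 6 libraries plus 1, with brighter squares for higher levels. Ccl2, Ccl7, Ccl12 and Ccl24 are brightest in Mf, Ccl3 and Ccl4 in MicroG1, and Cxcl10 in Mono. Cxcl12 is bright in vessel and mesenchymal columns, Cxcl14 in Astro1 and Astro3, and Cx3cl1 in neuronal columns.

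Ccl2, a ligand of the monocyte receptor Ccr2, was at 1048 ± 311 CPM in Mf and at 191 ± 211 CPM in Mono. In Mf it was 1030.2 and 816 CPM in the control libraries, 938 and 1572 CPM in the naris-occluded libraries and 710.4 and 1218 CPM in the trained libraries. The lowest Mf library was above the highest Mono library, which was trained replicate 2 at 601 CPM. Of the 572 Mf cells, 32.7% had at least 1 Ccl2 UMI (exact 95% interval 28.9 to 36.7%), against 0.0600% of the neurons of cluster N8. The median depth was 1630 UMIs in Mf and 879 UMIs in N8. Only cells with at least 500 UMIs were thinned to 500, here and below, and their shares were then 19.8% and 0.0285%. This interval and those below cover counting error only.

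Ccl7, which acts on Ccr2 and on further CC receptors, was at 1106 ± 251 CPM in Mf and at 199.9 ± 131 CPM in Mono. The Mf levels were 1321 and 1091 CPM in controls, 691 and 1266 CPM after occlusion and 947 and 1317 CPM after training. All 6 Mf libraries lay above all 6 Mono libraries, and no further cluster had a mean above 24 CPM.

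Ccl12, a mouse CC chemokine related to Ccl2, had the broadest myeloid pattern of the CC genes. It was at 2127 ± 502 CPM in Mf, 1079 ± 276 CPM in Mono, 570.4 ± 301 CPM in MicroG1, 189 ± 92.4 CPM in MicroG2 and 164 ± 87.1 CPM in MicroG3, and at 11.3 CPM in the next cluster. Each of the first 4 of these overlapped its neighbour in the order over libraries, whereas the MicroG3 range did not overlap that of the cluster after it. The shares of cells with a Ccl12 UMI were 45.1% in Mf, 22.2% in Mono, 28.2% in MicroG1, 15.4% in MicroG2 and 6.73% in MicroG3, against 0.360% in N8.

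Ccl24, an attractant of eosinophils that acts through Ccr3, had a far higher level in Mf than in any other cluster. Mf held 72.9% of its UMIs and the microglia 17.3%. Its level in Mf was 482 ± 89.2 CPM, with the libraries between 326 and 593 CPM. The next cluster, MicroG2, was at 17.1 ± 2.46 CPM. The Mf libraries therefore did not overlap those of any other cluster. In contrast to the other CC genes, Ccl24 was spread thinly over its cells, with at most 12 UMIs in a cell and 4 cells with 10 or more. Ccr3 itself had 6 UMIs in all annotated cells.

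Within Mf, cells with a Ccl2 UMI also tended to have the neighbouring genes. Ccl7 was found in 64.2% of the Ccl2-positive and in 11.9% of the Ccl2-negative Mf cells, and Ccl12 in 76.5% and 29.9%. The Ccl2-positive cells were deeper, with a median of 2371 UMIs against 1200, and the part of depth in these shares was not tested.

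Ccl3 and Ccl4, which draw monocytes and T cells, were the microglial members. Ccl3 was at 1037 ± 308 CPM in MicroG1, with 1014 and 748 CPM in controls, 709 and 1356 CPM after occlusion and 943 and 1453 CPM after training. It was at 311 ± 116 CPM in Mf, 209 ± 66.3 CPM in MicroG2 and 159 ± 60.8 CPM in Mono, and no MicroG1 library overlapped the Mf range. Ccl4 was at 1759.8 ± 693 CPM in MicroG1, with 2117 and 1254 CPM in controls, 834 and 1710.2 CPM after occlusion and 1808 and 2836 CPM after training. Its level was 384 ± 326 CPM in Mono, 284 ± 76.3 CPM in MicroG2 and 105 ± 53.3 CPM in Mf. Both genes were thus several times higher in the smaller MicroG1 cluster (790 cells) than in MicroG2 (2260 cells), whose names are exchanged in the study's list, although both clusters had like levels of the microglial markers.

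A Ccl3 UMI was seen in 51.1% of MicroG1 cells, 19.2% of MicroG2 cells and 2.52% of MicroG3 cells, and a Ccl4 UMI in 52.7%, 17.1% and 2.63%. The median depths were 2336, 1847 and 748 UMIs. After thinning to 500 UMIs the Ccl3 shares were 28.0%, 8.19% and 1.74%, against 0.152% in N8. The order of the 3 microglial clusters was therefore the same at equal depth, and all 3 lay above the neurons.

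Ccl3 and Ccl4 were found in the same cells. Ccl4 was detected in 68.8% of the Ccl3-positive and in 35.8% of the Ccl3-negative MicroG1 cells, whose median depths were 2438 and 2236 UMIs, and the share was higher in the Ccl3-positive cells of each of the 6 libraries. In MicroG2 the shares were 36.0% and 12.6%. Ccl12 did not share this pattern, since Ccl4 was detected in 55.2% of the Ccl12-positive and in 51.7% of the Ccl12-negative MicroG1 cells.

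MicroG1 was also the microglial cluster with the highest immediate early genes, which are transcribed within minutes of a stimulus and are known to rise in microglia during enzymatic dissociation. The summed level of 15 immediate early and stress genes was 15708 ± 1206 CPM in MicroG1, 2169.6 ± 355 CPM in MicroG2 and 351 ± 98.8 CPM in MicroG3, and the ranges over libraries did not overlap. Fos was at 2564 CPM in MicroG1 and 184 CPM in MicroG2, and Jun at 3550 and 729 CPM. A list of 12 cytokine and NF-kappaB response genes summed to 1321 ± 148 CPM, 503 ± 66.8 CPM and 177 ± 65.1 CPM in the 3 clusters, with Nfkbia, an inhibitor induced by NF-kappaB, at 418, 118 and 45.3 CPM. Nfkbia, Nfkbiz and Ier3 were members of both lists, so the sums share part of their counts. The part of dissociation in the levels of Ccl3 and Ccl4 was not tested.

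**Figure D2:**
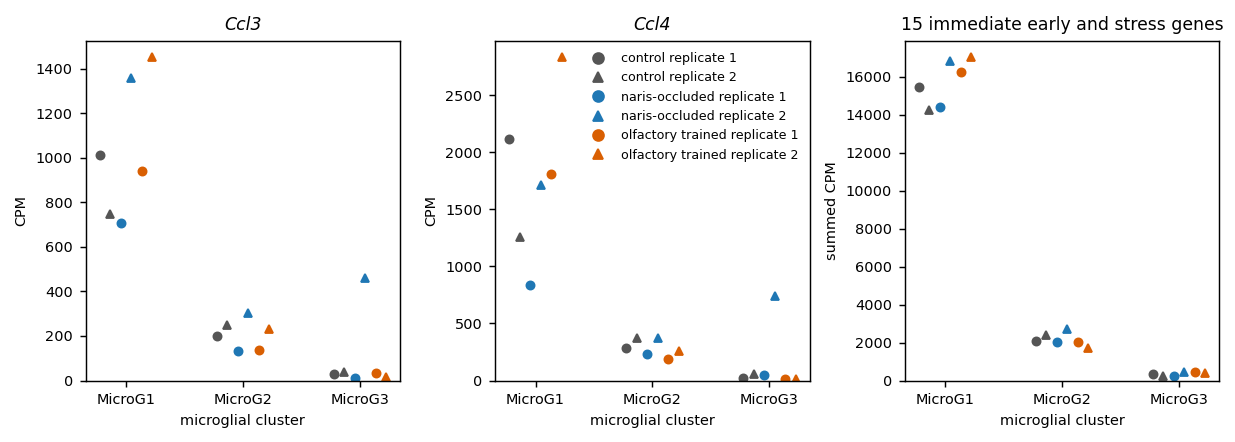
Level of Ccl3, of Ccl4 and of the summed immediate early and stress genes in the 3 microglial clusters, in CPM on linear axes, with 1 point per library (n = 6), coloured by condition, with circles for replicate 1 and triangles for replicate 2. Ccl3, Ccl4 and the immediate early genes are highest in MicroG1 and lowest in MicroG3, where naris-occluded replicate 2 stands apart for Ccl3 and Ccl4.

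Within each cluster, cells with and without a UMI of Ccl3 or Ccl4 were compared by their summed counts in each library. The 542 MicroG1 cells with a UMI of Ccl3 or Ccl4 had a summed immediate early level of 14821 ± 1572 CPM, against 17786 ± 1401 CPM in the 248 cells with neither, and the level was lower in 6 of 6 libraries. The cytokine and NF-kappaB list was higher in the cells with a chemokine UMI in 6 of 6 libraries, at 1421 ± 147 CPM against 1086 ± 140 CPM. In MicroG2 both lists were higher in the 664 cells with Ccl3 or Ccl4, at 2577 ± 367 against 1966 ± 334 CPM for the immediate early genes and 576 ± 117 against 468 ± 55.7 CPM for the cytokine list, again in 6 of 6 libraries. These comparisons rest on the same cells and counts, with some genes in both lists, and carry no test. The clusters were themselves made from the expression of these cells, and the part of that choice in these differences was not tested.

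The Mono cluster held several kinds of cell that differed in their chemokines. Its 135 cells with a UMI of Cd3e, Cd3d or Nkg7 held 67.7% of the Mono UMIs of Ccl5, a T cell chemokine, and 18.3% of those of Ccl4, but 1 UMI of Ccl2 and none of Ccl7, Ccl12 or Ccl24. A further 34 cells had 10 or more UMIs of S100a8 and S100a9, and among the 10 genes they had a UMI only of Ccl4, Ccl7 and Cx3cl1, with 1, 1 and 2 UMIs. The other 454 cells, with Cd74 at 16778 ± 1162 CPM and Ccr2 at 467 ± 110.2 CPM, held 99.6% of the Ccl2, 95.2% of the Ccl3, 81.5% of the Ccl4 and 100% of the Ccl12 UMIs of Mono. This split was made after the values were seen.

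Cxcl10, induced by interferons, was rare and uneven. It had 833 UMIs in 191 cells of all 51426, and 13 cells held 50% of them. In Mono its level was 84.0 and 363 CPM in controls, 303 and 22.3 CPM after occlusion and 6.07 and 262 CPM after training, a mean of 173 ± 154 CPM. Without the 1 cell of each library with the most Cxcl10 the mean was 64.4 ± 73.4 CPM. The olfactory ensheathing cells, glia that wrap the olfactory axons, held 34.5% of its UMIs (287) and Mono 31.2% (260). Of the 287, 65 lay in 1 OEC2 cell that also carried monocyte and dendritic cell markers. Without that cell the ensheathing cells held fewer than Mono. The ensheathing cluster OEC2 was at 60.3 ± 57.1 CPM with a library range from 0 to 129 CPM. The libraries of the same condition differed as much as libraries of different conditions.

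The CC genes were also carried by few cells. The 1892 Ccl2 UMIs lay in 464 cells, of which 49 held 50%, and 84 cells held 50% of the 6170 Ccl12 UMIs found in 1261 cells. For Cxcl14 and Cx3cl1 the like numbers were 1307 of 5583 cells and 2099 of 5793 cells. The highest count of any of the 10 genes in 1 cell was 124 UMIs, of Ccl12, and for Cx3cl1 it was 13.

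**Figure D3:**
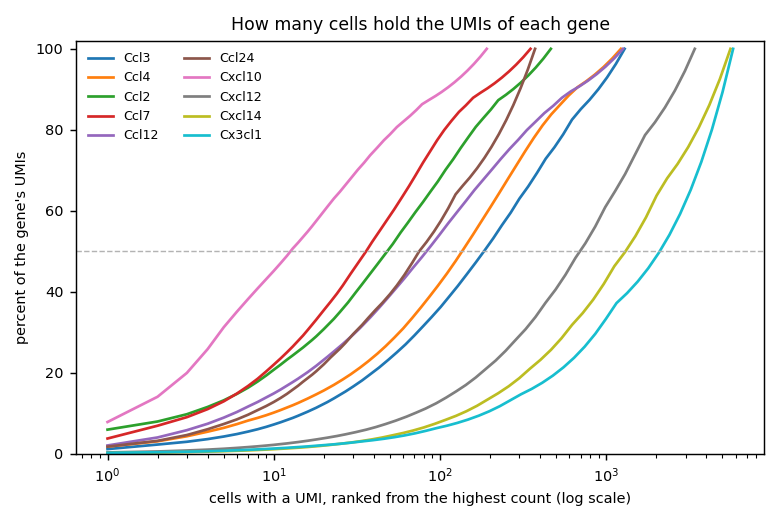
Cumulative percent of each gene's UMIs (y axis) against the number of cells ranked from the most UMIs of that gene to the fewest (x axis, log scale), with 1 line per gene over all annotated cells. The curve of Cxcl10 reaches 50% at 13 cells and that of Cx3cl1 at 2099 cells.

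A single cell set several library values outside the main cell types. One OEC2 cell of trained replicate 2, with 3488 UMIs, held 112 Ccl2 and 65 Cxcl10 UMIs, beside 37 UMIs of monocyte and dendritic cell markers, 16 of endothelial and 20 of ensheathing cell markers. Ccl2 in the ensheathing cells of that library was 41.3 CPM with this cell and 4.88 CPM without it, and Cxcl10 was 24.4 and 3.26 CPM. In the mural cells of naris-occluded replicate 1, 1 cell held 31 of the 36 Ccl2 UMIs, and the level was 140 CPM with it and 19.5 CPM without. In the endothelial cells of trained replicate 1, 1 cell held 49 of the 50 Cxcl10 UMIs, and the level was 45.7 and 0.916 CPM. Each of these library values was therefore mostly that of 1 cell.

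Cxcl12, the ligand of Cxcr4 and Ackr3 that retains and guides many migrating cells, belonged to vessels and mesenchyme. It was at 930.3 ± 135 CPM in EC1, 721 ± 148 CPM in the mural cluster Mural1, 508 ± 59.5 CPM in the mesenchymal cluster Mes1, 491 ± 57.3 CPM in EC2 and 289 ± 71.5 CPM in Mural2. Neighbours in this order overlapped over the 6 libraries, except that all Mural2 libraries, at 189 to 375 CPM, lay below those of EC2, at 420 to 560 CPM. A Cxcl12 UMI was found in 58.4% of EC1 cells (exact 95% interval 56.5 to 60.4%) and in 75.9% of the 158 deeper Mural1 cells, but after thinning to 500 UMIs in 33.8% and 28.7%, against 0.778% in N8. The EC1 level was 1074 and 1098 CPM in controls, 897 and 797 CPM after occlusion and 778 and 937 CPM after training.

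Cluster N11 stood out among the neurons with 313 ± 119 CPM of Cxcl12, where all other neurons had 12.7 ± 1.88 CPM. Of the 951 N11 cells, 660 (69.4%) had been left out of the authors' second annotation, which holds only neurons. These 660 cells had Cxcl12 at 349.9 ± 131 CPM together with the endothelial genes Cldn5 at 2037 CPM and Ly6c1 at 946 CPM and the neuronal genes Syt1 at 959.5 CPM and Gad1 at 749.5 CPM. The 291 cells that were kept had Cxcl12 at 78.7 ± 34.2 CPM. Of the 660 cells, 81.5% had a Cldn5 UMI and 78.6% a Syt1 UMI, so most of them carried endothelial and neuronal RNA under 1 barcode.

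Cxcl14, a CXC chemokine whose receptor is not settled, was the astrocyte member. It was at 1029.6 ± 81.7 CPM in Astro1 and 479 ± 55.5 CPM in Astro3, and at 95.6 ± 63.5 CPM in Astro2, whose libraries were lower than those of both. In Astro1 the libraries were at 978 and 1158 CPM (control), 981 and 999.6 CPM (occluded) and 957 and 1104 CPM (trained). This was the steadiest level among the leading clusters, with an SD of 81.7 CPM on a mean of 1029.6 CPM. A UMI was found in 77.1% of Astro1 cells and in 3.80% of EC1 cells, with median depths of 1852 and 1621 UMIs. The neuronal cluster N8 was the highest non-astrocyte cluster at 144 ± 42.1 CPM, with overlap to EC2 and to oligodendrocyte precursors at 112 ± 23.2 CPM.

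Cx3cl1 was the neuronal member, and 78.5% of its 7388 UMIs lay in neurons. N7 was at 668 ± 167 CPM, N8 at 547 ± 57.5 CPM, N15 at 370.1 ± 56.2 CPM and N10 at 271 ± 36.3 CPM, each overlapping its neighbour. In the authors' second annotation, N7 cells were mostly of the granule cell group n14-GC-7 (88.1%), N8 cells of n07-GC-2 (92.9%) and N15 cells of the mitral and tufted group n17-M/TC-3 (90.1%). In that annotation Cx3cl1 was highest in the external plexiform layer interneurons n18-EPL-IN at 919.5 ± 305 CPM, with a UMI in 52.2% of 161 cells, followed by n14-GC-7 at 618 ± 139 CPM and n07-GC-2 at 529 ± 55.8 CPM. The immature neurons of N1 were at 10.4 to 33.6 CPM, so Cx3cl1 was unevenly spread among neurons. A Cx3cl1 UMI was found in 37.8% of N7 and 38.8% of N8 cells, against 3.45% of MicroG2 cells whose median depth was 1847 UMIs, above the 687 and 879 UMIs of N7 and N8.

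**Figure D4:**
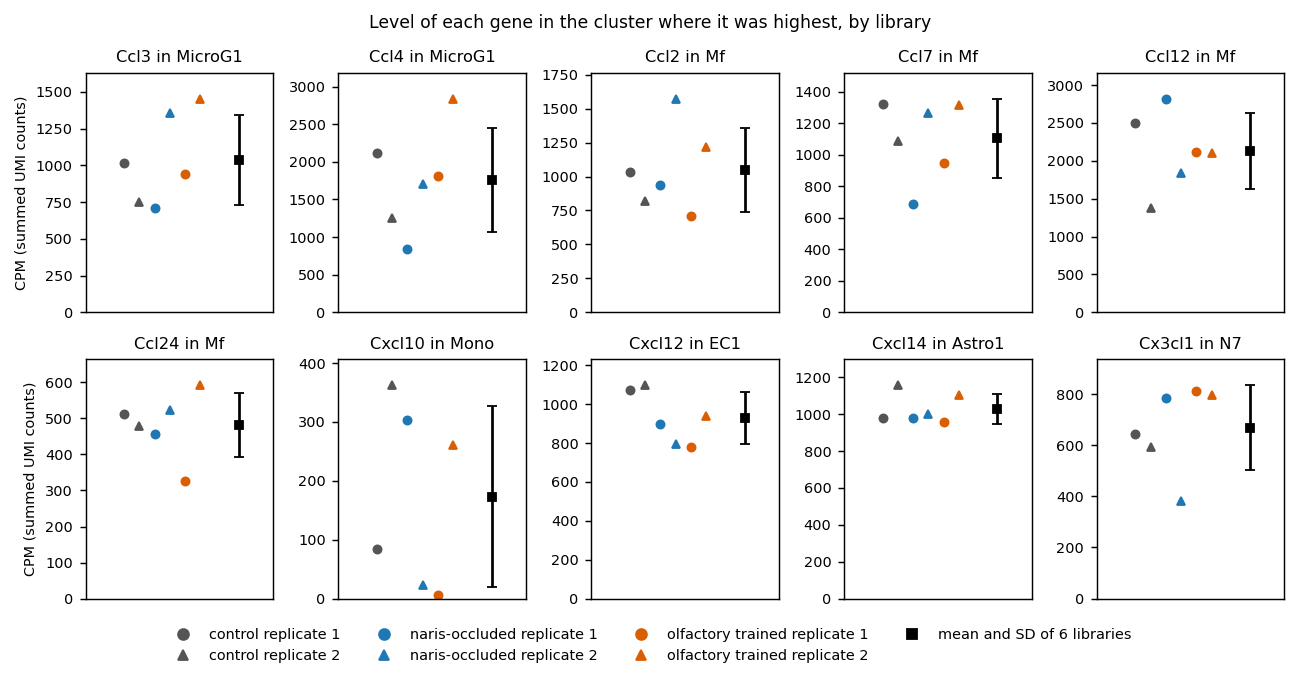
Level of each chemokine gene in its leading cluster in CPM, with 1 point per library, grouped by condition (2 control, 2 naris-occluded and 2 olfactory-trained libraries), and a black square with a bar for the mean and SD of all 6. Cxcl14 in Astro1 stays between 957 and 1158 CPM, whereas Cxcl10 in Mono runs from 6.07 to 363 CPM with no separation of the conditions.

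The receptors of these ligands were measured in the same cells. Of 23 chemokine receptor genes listed, 18 were in the table. Cx3cr1, the receptor of Cx3cl1, was at 1805 ± 127 CPM in microglia and 9.96 ± 1.70 CPM in neurons, the reverse of its ligand. Ccr2 was highest in Mono at 387 ± 98.2 CPM and Ccr1 in Mf at 122 ± 46.5 CPM. The Cxcl12 receptors Cxcr4 and Ackr3 were highest in the ensheathing cluster OEC4 at 216 ± 18.8 CPM and in Mural1 at 168 ± 53.6 CPM. In Mural2 Ackr3 was nearly the same, at 168 ± 36.5 CPM. Cxcr3, the receptor of Cxcl10, was at 37.0 ± 24.3 CPM in Mono.

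All 20 other chemokine ligands listed were in the table. Pf4, a platelet and macrophage chemokine, was highest in Mf at 5184 ± 453 CPM, as was Ccl8 at 653 ± 86.9 CPM, and Ccl5 was highest in Mono at 2291 ± 1357 CPM. Ccl6 and Ccl9 were highest in MicroG1, at 179 ± 30.9 and 123 ± 29.6 CPM. Among nonmyeloid clusters, Cxcl5 was highest in Astro1 at 72.3 ± 45.4 CPM, Ccl19 in Mes1 at 99.7 ± 34.9 CPM and Ccl27a in N12 at 166 ± 24.5 CPM.

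The genes whose log2 levels over the 38 clusters were most like each chemokine were ranked by Pearson's r. They were Mrc1 for Ccl2 (r = 0.80), Neurl3 for Ccl3 (0.95), Cx3cr1 for Ccl4 (0.95), Wfdc17 for Ccl7 (0.91), Cd48 for Ccl12 (0.95), Ccr1 for Ccl24 (0.92), Gm4951 for Cxcl10 (0.78), Slc22a8 for Cxcl12 (0.93), Mt3 for Cxcl14 (0.86) and C1qtnf4 for Cx3cl1 (0.94). Among the chemokines themselves the most alike were Ccl12 and Ccl3 (0.92) and Ccl3 and Ccl4 (0.92), and the least alike Ccl2 and Cxcl14 (-0.33). The most like gene led in another cluster than the chemokine for Ccl4, Ccl12, Cxcl10, Cxcl14 and Cx3cl1, with Mt3 for example highest in Astro2. The clusters share libraries and differ in depth, so these values are descriptions.

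The conditions were compared on UMIs summed per library in 9 cell classes, in a quasi-likelihood fit of edgeR that held all 6 libraries, with Benjamini-Hochberg adjustment over all genes of a class. Of the 90 pairs of chemokine and class, 50 passed the filter on low counts, and every chemokine passed in at least 2 classes. The question was whether loss or gain of olfactory experience was accompanied by other chemokine levels. Fold changes below are log2 differences with their standard errors, and the CPM given with tests are scaled by the normalization factors of the test. The comparisons of occluded and of trained with control use the same control libraries.

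Naris occlusion against control gave no call for the chemokines, with 0 of 50 pairs at adjusted p under 0.05 in edgeR's test and in DESeq2. The background over all genes and classes was 0.0221%. At unadjusted p under 0.05 there were 4 pairs, or 8% of them, against 4.94% of all genes, and in 12 of 50 pairs the libraries of the groups did not overlap, against 35.5% of all genes. The median log2 difference of the 50 pairs was -0.14 and that of all genes 0.00, with 32 pairs lower and 18 higher after occlusion.

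The smallest p of this contrast was that of Ccl12 in microglia. Its level was 507 and 279 CPM in the control libraries, 157 and 191 CPM in the occluded libraries and 276 and 318 CPM in the trained libraries. Both occluded libraries lay below both controls and below both trained libraries, and the log2 difference to control was -1.18 ± 0.22 with an unadjusted p of 6.93e-05 and an adjusted p of 0.320 in edgeR's quasi-likelihood test. In MicroG2 alone, an analysis added after seeing the data, the log2 difference was -1.38 with an adjusted p of 0.00121, in a cluster where 5 of 7599 genes (0.0658%) were called. Without MicroG3, a cluster with few UMIs per cell, the adjusted p was 0.0357, where 0.0223% of all genes were called, and without control replicate 2 it was 0.00504, where 0.0407% were called, but without control replicate 1, the library with the highest level, the difference was -0.68 with an adjusted p of 0.999. The call therefore rested on the choice of cells and on 1 control library.

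Cxcl12 had differences of opposite sign in the endothelial and the mural cells of vessels, both at unadjusted p under 0.05. It was 963 and 988 CPM in the endothelial cells of controls and 789 and 751 CPM after occlusion (log2 difference -0.34 ± 0.12, adjusted p = 0.870), and 343 and 438 CPM against 647 and 611 CPM in mural cells (0.69 ± 0.20, adjusted p = 0.892). The occluded libraries did not overlap the controls in either class. Neither difference passed the adjustment. The mural class joins Mural1, with Cxcl12 at 588 to 915 CPM over the libraries, and Mural2, at 189 to 375 CPM. By the study's cell counts, Mural1 made up a larger share of the mural cells in both occluded libraries than in both controls. The part of this mix in the mural difference was not tested.

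Olfactory training against control also gave 0 of 50 calls in edgeR's test and in DESeq2, beside a background of 0.0566%. At unadjusted p under 0.05 there were 6 pairs (12%, against 6.84% of all genes), and 10 pairs had no overlap (36.4% of all genes). Ccl3 in macrophages was lower in the trained libraries, at 164 and 273 CPM, than in the controls at 543 and 338 CPM and the occluded libraries at 443 and 441 CPM. The log2 difference to control was -1.03 ± 0.30 with an adjusted p of 0.401, and that to occlusion -1.02 ± 0.29 with an adjusted p of 0.307. With the replicate number as a block, which is also the sex of the pool, these were 0.0466 and 0.0294 in edgeR's test, so both passed. The block also raised the calls over all genes and classes, from 41 to 123 and from 351 to 561 of 72378. Each library held only 70 to 110 macrophages.

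Ccl2 in ensheathing cells and Cxcl10 in endothelial cells, the other large differences of training against control (2.79 ± 0.62, adjusted p = 0.163, and 2.60 ± 0.74, adjusted p = 0.197), are those in which a single cell held most UMIs of a library. Cx3cl1 in astrocytes was at 18.9 and 31.9 CPM in controls and 54.7 and 36.5 CPM after training (0.92 ± 0.27, adjusted p = 0.403). It stayed far below its neuronal level.

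Olfactory training against naris occlusion gave the 1 call among the 50 pairs, beside a background of 0.485% over all classes and 1.97% in neurons, where 264 of 13399 genes were called. In 11 of the pairs (22%) the unadjusted p was under 0.05, against 9.44% of all genes, and 14 had no overlap, against 37.6% of all genes. The median log2 difference of the 50 pairs was 0.12 and that of all genes 0.00, with 31 pairs higher and 19 lower after training.

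The call was Cx3cl1 in neurons. Its level was 236 and 213 CPM in the trained libraries, 166 and 133 CPM in the occluded libraries and 173 and 179 CPM in the controls. Both trained libraries were above all others, and on this scale both occluded libraries were below the controls. On unscaled CPM, occluded replicate 1, at 172 CPM, lay between the controls at 169 and 175 CPM. The log2 difference of trained to occluded was 0.58 ± 0.13 with an adjusted p of 0.0327 in edgeR's quasi-likelihood test, and that of trained to control 0.35 ± 0.13 with an adjusted p of 0.371. The call was lost without normalization factors (adjusted p = 0.0665), on the 4 libraries of the contrast alone (0.116), on cells with at least 1000 UMIs (0.156), and without either control library, occluded replicate 2 (0.199) or trained replicate 1 (0.168), while its direction was the same in each.

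The mix of neuronal clusters also differed between libraries. N7, the cluster with the highest Cx3cl1 level, made up 1.33% and 0.958% of the neurons in the occluded libraries. Its shares were 4.26% and 3.13% in the trained libraries and 3.79% and 3.24% in the controls. N8, which held the most Cx3cl1 UMIs (23.2%), made up 18.3% and 9.47% in the occluded libraries. Its shares were 14.2% and 18.5% in the trained libraries and 14.8% and 15.1% in the controls. With every cluster held at its mean share, Cx3cl1 was 210 and 209 CPM in the trained, 171 and 167 CPM in the occluded and 161 and 170.4 CPM in the control libraries. The log2 ratio of trained to occluded fell from 0.52 to 0.31 on unscaled CPM. Pooled, the occluded libraries were at 172 and 136 CPM, so of these mainly replicate 2 moved. Cluster by cluster, 13 of 16 could be fitted, and the fitted difference was positive in all 13. The clusters come from the same libraries, so these signs are not independent of each other. In edgeR's test 5 had an unadjusted p under 0.05, and no share over all genes was taken for these clusters. Among all genes in pooled neurons, 2135 of 13399 had an unadjusted p under 0.05. The adjusted p was under 0.05 in 0 clusters, the smallest being 0.0522 in N11. There 7.14% of all genes were called, and most of the 660 left-out cells carried endothelial and neuronal RNA. In those cells Syt1 was 722 and 628 CPM in the occluded and 1119 and 1251 CPM in the trained libraries. Gad1 and Snap25 were also higher in both trained libraries, and Tubb3 was lower. The part of this shift in the Cx3cl1 difference of N11 was not tested. The libraries of trained mice lay above those of occluded mice in 9 of the 16 clusters, below in 1 and overlapped in 6. No such share over all genes was taken by cluster. Over the 9 classes together, 37.6% of all pairs of gene and class had no overlap in this contrast, in either direction.

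**Figure D5:**
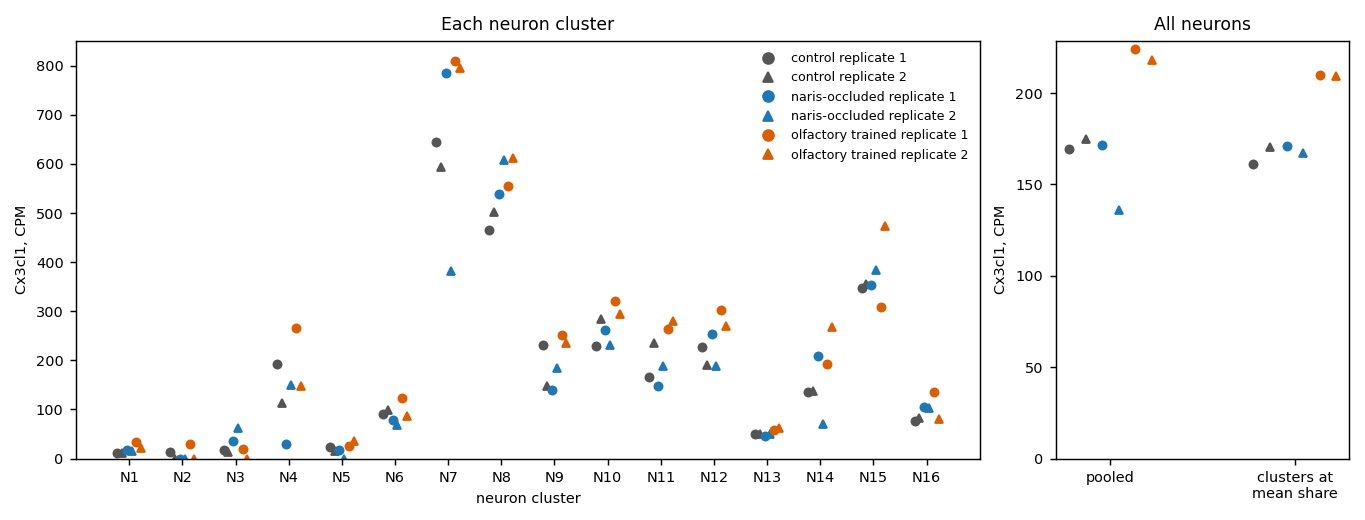
Cx3cl1 in CPM in each neuronal cluster (left) and in all neurons, pooled or with every cluster at its mean share (right), with 1 point per library, coloured by condition and shaped by replicate. The trained libraries lie above the occluded ones in 9 of 16 clusters, below in 1 and overlap in 6, and all clusters share the same libraries. N7 and N8 have the highest levels.

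Cxcl12 in N11 was the largest chemokine difference within a neuronal cluster. It was 362 and 317 CPM in controls, 504 and 323 CPM after occlusion and 179.6 and 194 CPM after training, and trained was below occluded by 1.20 ± 0.22 on the log2 scale with an adjusted p of 0.000245, in a cluster where 613 of 8586 genes (7.14%) were called. The endothelial gene Cldn5 moved with it. In the 660 left-out N11 cells, Cxcl12 was 401 and 362, 559 and 357, and 207 and 213 CPM in control, occluded and trained libraries, and Cldn5 was 2153 and 2253, 3314 and 2201, and 1151 and 1153 CPM. Without those cells the difference for all neurons was 0.12 on the log2 scale, where it had been -0.24 with them. In endothelial cells themselves Cxcl12 did not pass between trained and occluded (0.09 ± 0.12, adjusted p = 0.849).

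For the genes in their own leading classes, the 3 contrasts otherwise gave differences within the spread of the pools. Cxcl14 in astrocytes was 811 and 981 CPM in controls, 825 and 849 CPM after occlusion and 793 and 961 CPM after training, with log2 differences of -0.10 ± 0.13, -0.03 ± 0.13 and 0.07 ± 0.13. Ccl24 in macrophages ranged from 381 to 701 CPM with differences of -0.01, -0.12 and -0.11, each with a standard error of at least 0.25. Ccl4 in microglia, at 700.2 and 624, 418 and 884, and 422 and 1063 CPM, had differences of -0.02, 0.16 and 0.19 with standard errors of 0.33, so the replicates of a condition differed more than the conditions. Differences of this size cannot be told from the spread of 2 libraries a group.

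Few genes of the pathway lists passed the test. Of the other chemokine ligands, 43 pairs of gene and class were tested, and 1 passed, namely Cxcl5, a neutrophil attractant, in astrocytes. It fell from 70.7 and 135 CPM after occlusion to 21.7 and 28.8 CPM after training (-2.05 ± 0.27, adjusted p = 0.000864), with controls at 56.2 and 56.2 CPM. The share called over all genes and classes was 0.485% in this contrast. None of the 37 receptor pairs, 51 cytokine and NF-kappaB pairs or 88 interferon-stimulated pairs passed in any contrast. The median log2 difference of the 11 interferon-stimulated genes was nevertheless below 0 against control in several classes. After occlusion and training it was -0.86 and -0.96 in microglia and -0.73 and -1.11 in ensheathing cells. It was -0.54 and -1.05 in mesenchymal cells and -0.43 and -0.69 in neurons. In these classes the medians of all genes were at most 0.012 from 0. In OEC2 their summed level was 4465 and 1985 CPM in controls, 1059 and 2394 CPM after occlusion and 935 and 1987 CPM after training. In MicroG1 it was 935 and 636, 383 and 441, and 633 and 759 CPM. Control replicate 1 was the highest library in both clusters, and control replicate 2 lay within the range of the other groups. Of 115 immediate early and stress pairs, Fosb (1.69 ± 0.29, adjusted p = 0.00812) and Egr1 (0.96 ± 0.17, adjusted p = 0.00988) passed, both in neurons and both higher in trained than in occluded libraries, beside the 1.97% of all genes called in neurons.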

How the data were processed

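RNA of single olfactory bulb cells was counted in 6 libraries. The authors made the deposited counts of UMIs per gene and barcode without normalization, and took clusters and mitochondrial fractions from their own analysis. The study states that doublets were removed and that cells needed at least 200 genes. The deposited counts still held 1123 barcodes without a cluster, and the annotation kept the N11 cells with endothelial and neuronal RNA. The submitters' processing notes name Cell Ranger 2.0.0, Seurat 2.2.1 and mm10. The fraction of mitochondrial UMIs in the deposited annotation was not tested. The library column of the annotation was used, since the cell-name starts of the trained libraries are reversed against it. No further cell filter or doublet caller was applied.

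Counts were summed per library and cluster, or per library and class for tests with edgeR 4.0.16 (quasi-likelihood, TMM factors, its filter on low counts, Benjamini-Hochberg adjustment at 0.05) in R 4.3.3, checked on simulated data. Libraries were grouped by their labels, and the alternatives, among them DESeq2 1.42.0 and a replicate block, are given at the end. Barcodes without a cluster (1123) entered no comparison. With 2 libraries a group, only large differences can pass. Likeness used log2 of CPM plus 1 over genes that reached 20 CPM in a cluster. The genes, lists and tests were chosen with earlier results of these data known, and the genes named beside the 10 are members of the lists, the most like gene of each, markers, and genes that passed.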

Additional observations from a re-analysis of the deposited data

Results flagged for a closer look

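In 42 pairs of gene and cluster with a mean of at least 100 CPM, the gap between the highest or lowest library and its nearest neighbour was compared with Dixon's critical value for 6 libraries. Chance alone gives about 1 flag in 20 groups, and 3 of the 42 pairs passed. In Mono, trained replicate 2 stood apart with Ccl2 at 601 CPM and Ccl4 at 1023 CPM, where the other 5 libraries were at most 202 and 384 CPM. The top cell held 29.0% of the Ccl2 UMIs of that library, and without it the level was 432 CPM. In MicroG3, naris-occluded replicate 2 stood apart with Ccl4 at 741 CPM, where the other 5 libraries were at most 56.5 CPM. There 1 cell of 152 held 54 of the 87 Ccl4 UMIs, together with 27 Ccl3 UMIs and 1 UMI of microglial markers, and without that cell the level was 286 CPM.

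The 1123 barcodes without a cluster, used in no comparison, held 46 UMIs of Ccl2, 155 of Ccl3, 276 of Ccl4, 6 of Ccl7, 245 of Ccl12, 16 of Ccl24, 4 of Cxcl10, 127 of Cxcl12, 491 of Cxcl14 and 369 of Cx3cl1, each above the 3 UMIs that a count of 0 allows. Single barcodes among them held up to 98 UMIs of Ccl12 and 61 of Cx3cl1.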

How the results depend on the processing

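Naris occlusion against control gave 0 of 50 calls, and 1 without MicroG3 (Ccl12 in microglia). Without the filter on low counts it gave 3 (Ccl12 in microglia, Ccl2 in mural cells and Cxcl10 in ensheathing cells). Training against control gave 0, 3 without the filter and 2 with the replicate block (Ccl3 in macrophages and Ccl2 in ensheathing cells). It gave 1 in leading clusters (Cxcl12 in N11), where the share over all N11 genes was not taken for this contrast. Training against occlusion gave 1, but 0 without normalization factors, 0 on 4 libraries, 8 without the filter, 3 with the block (the 2 just named and Cx3cl1 in neurons), and 1 to 7 when a library was left out, with 7 without trained replicate 2. The 1 call was Ccl2 in ensheathing cells on cells with at least 1000 UMIs and Cxcl12 in N11 in leading clusters. In N11 7.14% of all genes were called in that contrast, and no such share was taken for the deeper cells. All genes gave 351 calls of 72378 tested in that contrast, and 1391 of 145324 without the filter. They gave 228 without normalization factors and 235 of 68881 on 4 libraries. The number of calls over all genes in that contrast also changed when a library was left out, and it too was largest without trained replicate 2. Such a fit leaves 1 library in a group, so its count of chemokine pairs is not a result about the chemokines. Against control, all genes gave 16 calls after occlusion and 41 after training of 72378 tested. Without the filter these were 293 and 561 of 145324. The cause of these changes was not tested.

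Replicate numbers were shared by only 2 libraries a group and mark the sex-linked RNA of the pool. Libraries that carry the same number deviated from their group means with a correlation between 0.034 and 0.515 in 27 comparisons, of which 26 were above 0.1. No source used here says that a number marks a shared litter, batch or day, and the reported tests have no block. With the block, all genes together gave 41, 123 and 561 calls in place of 16, 41 and 351. It turned Ccl2 in macrophages (-0.017) and Ccl4 in microglia (-0.013), both trained against control, and gave Ccl3 in macrophages adjusted p-values of 0.0466 (trained against control) and 0.0294 (trained against occluded) in edgeR.

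Other differences, on the log2 scale, also changed sign. In the leading cluster these were Ccl3 in microglia, trained against occluded (0.19), Ccl12 in microglia, trained against control (0.045), and Cxcl12 in neurons, occluded against control (0.28). Without the filter they were Ccl24 (0.015) and Ccl3 (0.010) in macrophages, occluded against control. Cxcl12 in neurons, trained against occluded, was 0.087 in the second annotation and 0.12 without the left-out N11 cells, alternatives chosen after seeing the data.

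Leaving out each library in turn gave differences of both signs. These were, trained against control, -0.43 to 0.40 for Ccl2 in macrophages, -0.61 to 0.65 for Ccl3 in microglia, -0.65 to 0.68 for Ccl4 in microglia, -0.40 to 0.13 for Ccl7 in macrophages, -0.25 to 0.55 for Ccl12 in macrophages, -0.65 to 0.27 for Ccl24 in macrophages, -5.00 to 0.77 for Cxcl10 in monocytes, -0.17 to 0.12 for Cxcl14 in astrocytes and -0.77 to 0.091 for Ccl12 in microglia. These were, trained against occluded, -0.87 to 0.017 for Ccl2 in macrophages, -1.01 to 0.44 for Ccl3 in microglia, -0.63 to 0.83 for Ccl4 in microglia, -0.21 to 0.69 for Ccl7 in macrophages, -0.44 to 0.15 for Ccl12 in macrophages, -0.64 to 0.28 for Ccl24 in macrophages, -4.59 to 2.63 for Cxcl10 in monocytes, -0.019 to 0.20 for Cxcl12 in endothelial cells, -0.074 to 0.20 for Cxcl14 in astrocytes and -0.47 to 0.035 for Cxcl12 in neurons. These were, occluded against control, -0.29 to 0.85 for Ccl3 in microglia, -0.67 to 0.42 for Ccl4 in microglia, -0.82 to 0.089 for Ccl7 in macrophages, -0.081 to 0.74 for Ccl12 in macrophages, -0.13 to 0.10 for Ccl24 in macrophages, -3.25 to 0.99 for Cxcl10 in monocytes, -0.23 to 0.045 for Cxcl14 in astrocytes and -0.29 to 0.39 for Ccl3 in macrophages.

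Levels in leading clusters moved beyond 1 SD in 2 of 99 alternatives, both of Cxcl12 in EC1, at 1071 CPM as a mean over cells and 1086 CPM in controls alone. A level with a large SD can change much and still count as unmoved. Cxcl10 in Mono, at 173 ± 154 CPM, did so at 64.4 CPM without the top cell of each library. Of 30 alternatives for shares of cells, 21 moved.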
